A study of Homo sapiens with 6 samples.

Results

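The genes described here encode 10 proteins that set how long cytokine mRNAs last: ZFP36, ZFP36L1, ZFP36L2, ZC3H12A, ZC3H12C, ZC3H12D, RC3H1, RC3H2, ELAVL1 and HNRNPD. They were picked by symbol, with no threshold on a measured value but with earlier results of these data known. All 10 were found on primary chromosomes among the 63677 genes of the count table. RNA-Seq was carried out on RPMI8226, an established human multiple myeloma line labelled as wild type, after 6 hr with 100 nM GST-PTR1 or 100 nM GST, with 3 libraries of each. GST-PTR1 carries 1 domain, PTR1, of HAPLN1, a matrix protein, joined to glutathione-S-transferase and made in E. coli, and GST is the partner alone, so both arms received GST. Counts summed to 15202503, 20077280 and 23453473 with GST and to 22874133, 28837431 and 44688737 with GST-PTR1. A library is named by its treatment and this sum (GST 15202503), and the values of 3 libraries follow that order.

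Short-lived mRNAs of cytokines, chemokines and their regulators are destroyed by a small set of proteins that read signals in the 3′ untranslated region. The ZFP36 family (tristetraprolin and its relatives) binds AU-rich elements and brings in the CCR4-NOT deadenylase, while ZC3H12A (Regnase-1) cuts stem-loops with its own nuclease domain and RC3H1 and RC3H2 (the Roquins) bind stem-loops and recruit the deadenylase. ELAVL1 (HuR) binds U-rich and AU-rich stretches and protects many of the same mRNAs, and HNRNPD (AUF1) binds AU-rich elements and mostly promotes decay. Several of these factors are themselves made from unstable, inducible mRNAs. The counts give RNA levels only. Neither protein nor the rate of decay was measured, and in bulk RNA a change in the number of cells that express a gene cannot be told apart from a change in RNA per cell.

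The letters the ZFP36 family reads were found in the mRNAs of the family itself. In GENCODE 29 transcripts (GRCh38), taking for each gene the coding transcript with the longest coding sequence, the heptamer TATTTAT (written as DNA, read on the sense strand only, overlaps counted) stood 3 times in the 713 bases of the ZFP36 3′ untranslated region, 3 times in the 1871 bases of ZFP36L1 and 3 times in the 1917 bases of ZFP36L2. Each of these regions also held the longer nonamer TTATTTATT, which contains the heptamer, 1 time. ELAVL1 had 5 heptamers in 4904 bases, RC3H2 had 5 in 5071 and RC3H1 had 2 in 7507. Of 18835 genes with such a region, 27.8% held the heptamer and 7.19% the nonamer. Among the 1010 regions within 10% of the length of that of ZFP36, 1.49% held at least as many heptamers, against 5.83% for the length of ZFP36L1, 5.75% for ZFP36L2, 4.27% for RC3H2, 4.41% for ELAVL1 and 58.3% for RC3H1. Windows of 29 bases around 1 nonamer per gene are shown for the 5 genes that hold one, with the heptamer in capitals, so that the shared core and the differing flanks can be compared.
ZFP36, chr19:39409196-39409224, plus strand: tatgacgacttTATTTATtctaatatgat
ZFP36L1, chr14:68788077-68788105, minus strand: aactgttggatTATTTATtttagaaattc
ZFP36L2, chr2:43223448-43223476, minus strand: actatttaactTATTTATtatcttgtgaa
ELAVL1, chr19:7961828-7961856, minus strand: atttatgtattTATTTATtgaagtgtgaa
RC3H2, chr9:122849199-122849227, minus strand: cttagttaactTATTTATttctattttat
No heptamer was found in ZC3H12A (768 bases), HNRNPD (1687 bases) or ZC3H12D (3888 bases). ZC3H12C depended on the transcript, with 0 heptamers in the 197 bases of the chosen one and 5 in the 6104 bases of the longest annotated region.

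**Figure D1:**
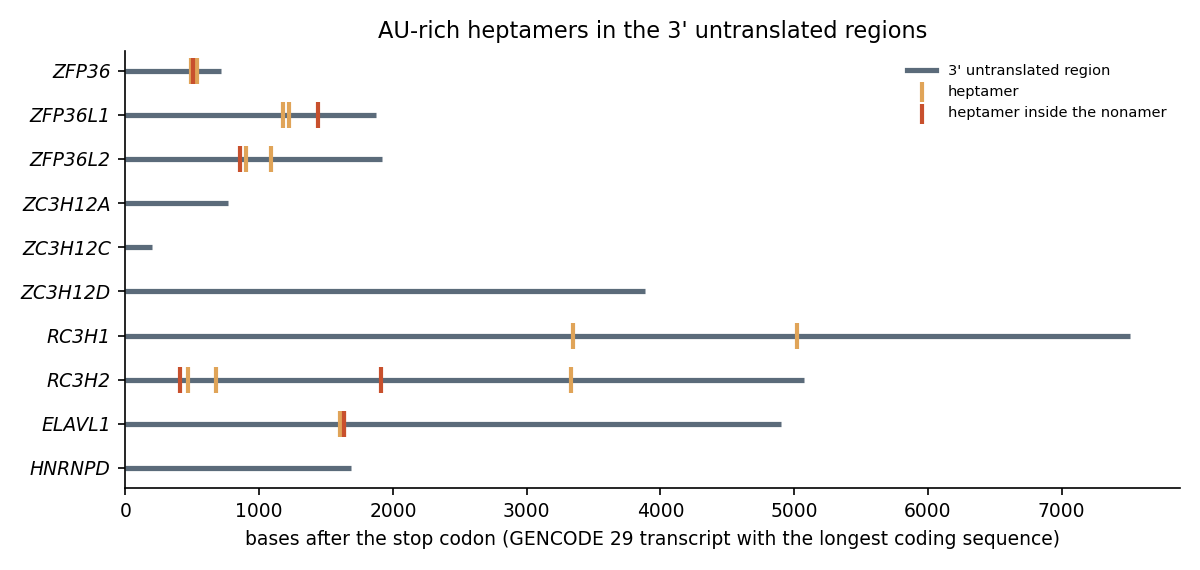
Map of the 3′ untranslated regions of the 10 genes, drawn to scale from the stop codon (x axis, bases), with a tick at the start of each heptamer and a darker tick where it lies inside the nonamer. The 3 ZFP36 family genes each carry 3 heptamers, while ZC3H12A, ZC3H12D and HNRNPD carry none.

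The mRNAs of 3 of these factors rose with GST-PTR1. ZC3H12A rose 7.04-fold, ZFP36 rose 3.70-fold and ZFP36L1 rose 2.47-fold, while ZFP36L2, ZC3H12C, RC3H1, RC3H2, ELAVL1 and HNRNPD did not pass the test. ZC3H12D was close to the limit of detection and was not among the 9 members that passed the filter on low counts. Of those 9 genes, 3 were called higher at an adjusted p under 0.05 and 0 lower. Over the 16926 genes tested, 9.15% were called higher and 11.4% lower. The 3 called genes were all at least 2-fold higher, as were 3.68% of all genes tested. Because the members were chosen with earlier results of these data known, their share is not independent evidence of a direction. All 9 reached the filter's level in the GST libraries alone, so none of them was tested only because it was high with GST-PTR1. The 3 calls were made by edgeR's quasi-likelihood test and held in all 14 other fits, with log2 fold changes between 2.62 and 2.89 for ZC3H12A, between 1.69 and 2.11 for ZFP36 and between 1.11 and 1.49 for ZFP36L1. TMM factors, which correct the totals for a few abundant genes, ran from 0.883 to 1.096 and were lower in every GST-PTR1 library than in every GST library. Without them the median of all genes tested moved from 0.01 to -0.19 on the log2 scale.

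ZC3H12A (ENSG00000163874, GRCh37 chromosome 1 from 37940153 to 37949980, plus strand), the Regnase-1 nuclease, had 282, 273 and 401 counts with GST and 2504, 2869 and 4165 with GST-PTR1. On TMM-scaled totals these were 16.9, 12.9 and 16.1 CPM (counts relative to the library total) with GST and 112.3, 105.0 and 105.6 with GST-PTR1. Every GST-PTR1 library was several times higher than the highest GST library, and the 3 GST-PTR1 libraries lay close together. The log2 fold change was 2.82 with a standard error of 0.12 and a 95% interval from 2.54 to 3.09 (adjusted p = 7.5e-08).

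ZFP36 (ENSG00000128016, GRCh37 chromosome 19 from 39897453 to 39900052, plus strand), the founding member of its family and known as tristetraprolin, had 588, 481 and 587 counts with GST and 2423, 2770 and 3578 with GST-PTR1. Its levels were 35.3, 22.8 and 23.5 CPM with GST and 108.7, 101.4 and 90.7 CPM with GST-PTR1, so the treatments did not overlap. GST 15202503 stood above the other GST libraries in ZFP36, in ZFP36L1 and in ZFP36L2. The log2 fold change of ZFP36 was 1.89 with a standard error of 0.16 (adjusted p = 1.5e-05).

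ZFP36L1 (ENSG00000185650, GRCh37 chromosome 14 from 69254377 to 69263190, minus strand), a paralog that also recruits the deadenylase, had 591, 500 and 647 counts with GST and 1591, 2082 and 2451 with GST-PTR1. In CPM the GST libraries held 35.5, 23.7 and 25.9 and the GST-PTR1 libraries 71.4, 76.2 and 62.1. The lowest GST-PTR1 library was above the highest GST library, and the gap was narrower than for ZFP36 or ZC3H12A. The log2 fold change was 1.30 with a standard error of 0.15 (adjusted p = 0.00016).

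**Figure D2:**
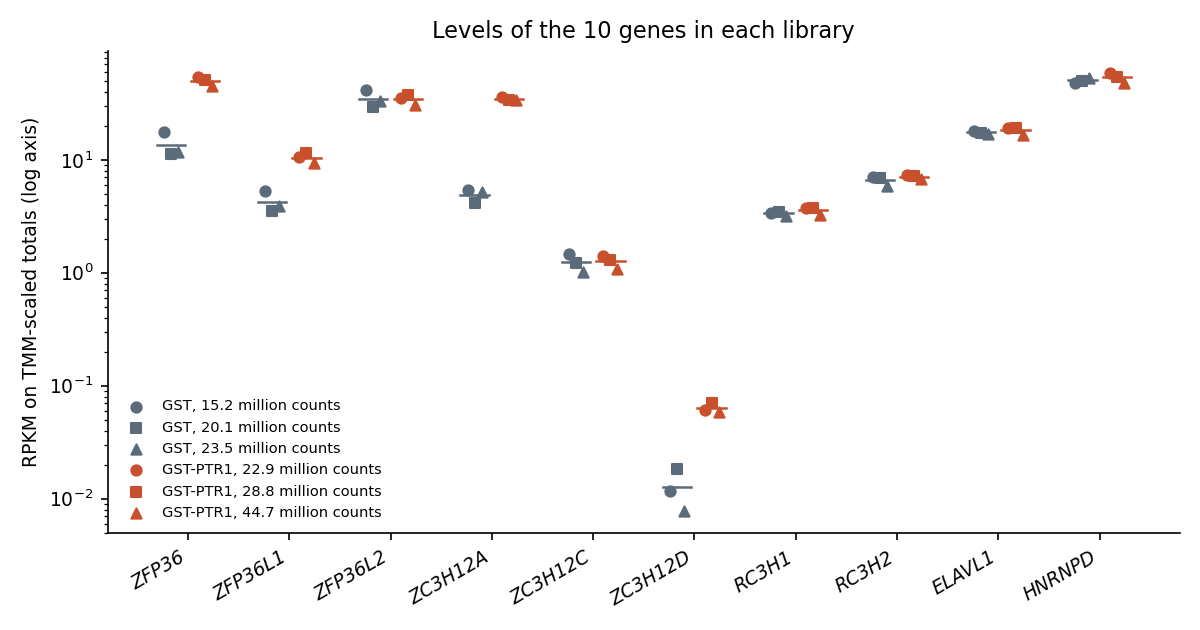
Level of each of the 10 genes in each of the 6 libraries, as RPKM on TMM-scaled totals (log axis), with GST in grey and GST-PTR1 in orange, marker shapes for libraries and a line at the mean of 3. ZFP36, ZFP36L1, ZC3H12A and ZC3H12D show no overlap between treatments, and the other genes overlap.

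ZFP36L2, the third gene of its family, did not pass the test. It had 152.4, 108.5 and 121.6 CPM with GST and 129.6, 139.7 and 113.6 CPM with GST-PTR1. The GST-PTR1 libraries lay within the range of the GST libraries. Its log2 fold change was 0.00 with a 95% interval from -0.30 to 0.30 (adjusted p = 0.99).

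ZC3H12C, a paralog of the Regnase-1 nuclease, was low and overlapped, with 14.3, 11.97 and 9.82 CPM with GST and 13.6, 12.7 and 10.4 CPM with GST-PTR1. Its log2 fold change was 0.03, with an interval from -0.34 to 0.39. ZC3H12D, another paralog, had 1, 2 and 1 counts with GST and 7, 10 and 12 with GST-PTR1. The GST counts were at or under 3, which is worth 0.12 to 0.18 CPM in these libraries. The ratio of summed counts, 29 against 4 on TMM-scaled totals, was 5.11 with an exact 95% interval from 1.79 to 19.99 that covers counting error only. With every gene of at least 1 count admitted, the edgeR test gave a log2 fold change of 2.30 (adjusted p = 0.015), a value that rests on those 4 GST counts.

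RC3H1, the Roquin that is best known for restraining ICOS and TNF mRNAs, had 39.2, 39.7 and 36.8 CPM with GST and 43.4, 43.2 and 37.3 CPM with GST-PTR1. Its close relative RC3H2 had 81.3, 80.1 and 67.9 CPM with GST and 84.4, 82.9 and 77.7 CPM with GST-PTR1. In both genes GST-PTR1 44688737 was the lowest of its treatment, and the treatments overlapped. The log2 fold changes were 0.10 for each, with intervals from -0.14 to 0.34 for RC3H1 and from -0.14 to 0.33 for RC3H2.

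ELAVL1, the stabilizing factor, had 124.1, 121.1 and 118.8 CPM with GST and 133.9, 132.8 and 115.8 CPM with GST-PTR1. HNRNPD had 336.2, 350.7 and 372.8 CPM with GST and 412.2, 379.0 and 332.5 CPM with GST-PTR1. Neither gene separated the treatments, and for both the intervals reached less than 0.34 from zero on the log2 scale. The log2 fold change was 0.07 for ELAVL1, with an interval from -0.15 to 0.29, and 0.08 for HNRNPD, with an interval from -0.17 to 0.33. The 6 genes that were tested and not called had log2 fold changes between 0.00 and 0.10 with TMM factors, and all 6 were below zero with library totals, from -0.09 for RC3H1 to -0.19 for ZFP36L2, still without a call.

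Non-overlap alone did not set these genes apart from the rest of the table. Of the 9 members tested, 3 had no overlap between the CPM of the treatments, and 40.4% of all genes tested had none.

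**Figure D3:**
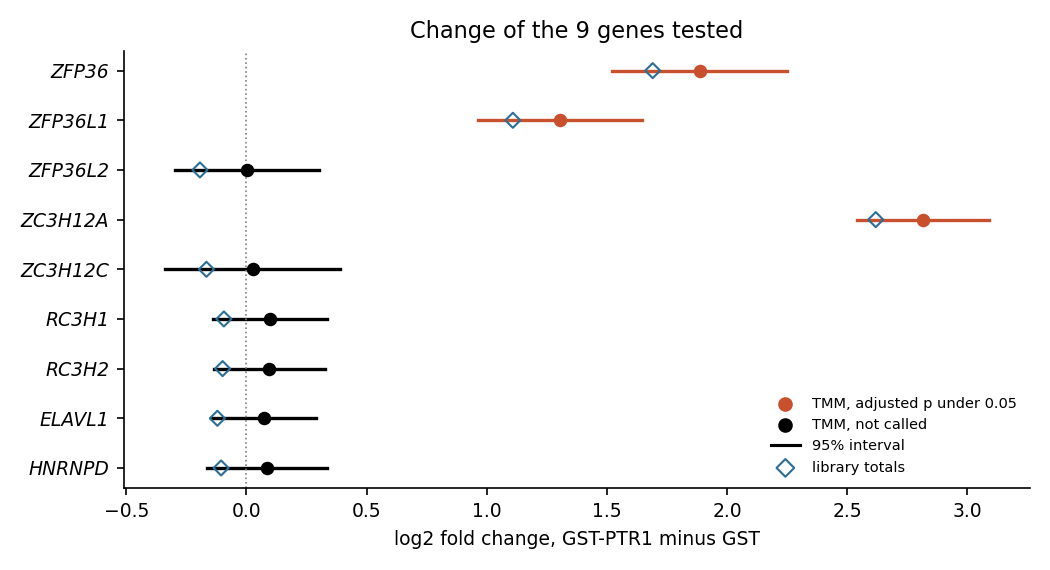
Log2 fold change (GST-PTR1 minus GST) of the 9 genes tested, with 95% intervals from edgeR on TMM factors, and the same fit on library totals as open diamonds. ZC3H12A, ZFP36 and ZFP36L1 sit well above zero under both scalings, and the other 6 lie above zero with TMM factors and below it with library totals.

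Levels per length of exon are given in RPKM (CPM divided by the exon length in kilobases). That length covers all annotated exons of a gene and can exceed the length of a single mRNA. HNRNPD had the highest level with GST, at 50.6 ± 2.64 (SD, n = 3), followed by ZFP36L2 at 34.5 ± 6.10. ELAVL1 at 17.4 ± 0.38 and ZFP36 at 13.5 ± 3.50 came next, and their ranges over libraries overlapped. RC3H2 followed at 6.62 ± 0.65, then ZC3H12A at 4.91 ± 0.68 and ZFP36L1 at 4.25 ± 0.94, which also overlapped, then RC3H1 at 3.35 ± 0.13, ZC3H12C at 1.24 ± 0.23 and ZC3H12D at 0.013 ± 0.0053. With GST-PTR1 the order at the top was another. HNRNPD at 53.7 ± 5.74 and ZFP36 at 49.9 ± 4.50 overlapped, and ZFP36L2 at 34.5 ± 3.56 and ZC3H12A at 34.5 ± 1.30 overlapped. ELAVL1 was next at 18.3 ± 1.46, and ZFP36L1, at 10.5 ± 1.07, lay above RC3H2 at 7.07 ± 0.30. RC3H1 at 3.59 ± 0.30, ZC3H12C at 1.26 ± 0.17 and ZC3H12D at 0.064 ± 0.0064 kept the last places.

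The makeup of the ZFP36 family differed between the treatments in every library. Of the summed RPKM of the 3 genes, ZFP36L2 held 64.3%, 66.4% and 67.9% with GST and 35.1%, 37.9% and 36.1% with GST-PTR1. ZFP36 held 27.4%, 25.6% and 24.1% with GST and 54.2%, 50.6% and 53.0% with GST-PTR1. By RPKM, ZFP36L2 was thus the most abundant of the family in each GST library, and ZFP36 in each GST-PTR1 library. The order with GST-PTR1 depends on the exon lengths, 2010 bases for ZFP36 and 3696 for ZFP36L2. In CPM, ZFP36L2 stayed above ZFP36 in every GST-PTR1 library, at 129.6, 139.7 and 113.6 against 108.7, 101.4 and 90.7. ZFP36L1 held 8.11% ± 0.16 with GST and 11.03% ± 0.38 with GST-PTR1 (SD, n = 3). Its level was divided by 6676 bases of exon, against 2010 for ZFP36. In CPM with GST these 2 genes had 28.4 ± 6.27 and 27.2 ± 7.03 (SD, n = 3). The family's sum was 52.3 ± 10.5 RPKM with GST and 94.9 ± 8.41 RPKM with GST-PTR1 (SD, n = 3), a ratio of 1.82. Each of these differences had an exact two-sided permutation p of 0.1, the smallest that 3 libraries against 3 can give.

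Among the ZC3H12 genes, ZC3H12A held 78.6%, 76.8% and 83.5% of the summed RPKM with GST and 96.1%, 96.1% and 96.8% with GST-PTR1, and ZC3H12C held most of the remainder. The sum of the 3 genes was 6.16 ± 0.76 RPKM with GST and 35.9 ± 1.42 RPKM with GST-PTR1 (SD, n = 3; exact permutation p = 0.1, the smallest possible), a ratio of 5.82. RC3H2 made up 66.3% ± 1.40 of the Roquin pair with GST and 66.4% ± 0.96 with GST-PTR1 (SD, n = 3; exact permutation p = 0.9). ELAVL1 made up 25.7% ± 1.40 of its sum with HNRNPD with GST and 25.5% ± 0.80 with GST-PTR1 (SD, n = 3; exact permutation p = 1).

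Differences between related genes in their change were measured as the log2 ratio of their RPKM, with 0.1 added, within each library, for 8 pairs. The ratio of ZFP36 to ZFP36L2 was -1.23, -1.37 and -1.48 with GST and 0.62, 0.42 and 0.55 with GST-PTR1, a difference of 1.89. It was below zero in every GST library and above zero in every GST-PTR1 library. The sign with GST-PTR1 depends on the division by exon length. The ratio of ZFP36L1 to ZFP36L2 differed by 1.29 and that of ZFP36 to ZFP36L1 by 0.60. The ratio of ZC3H12A to ZC3H12C differed by 2.77. These 4 pairs did not overlap between treatments, and each had an exact permutation p of 0.1 (0.13 after Benjamini-Hochberg adjustment over the 8 pairs), which the design cannot improve on. For RC3H1 against RC3H2 the difference was 0.00 (exact permutation p = 0.9), and leaving out 1 library at a time gave values from -0.038 to 0.047. For ELAVL1 against HNRNPD it was -0.01 (exact permutation p = 1), with values from -0.066 to 0.039. The 2 pairs with ZC3H12D allow no comparison, because its level lay below the 0.1 RPKM added, which sets the value. With ZC3H12A the difference was 2.26, and 1.09 with 0.01 RPKM added, and for ZC3H12C it was -0.51 and -1.69.

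**Figure D4:**
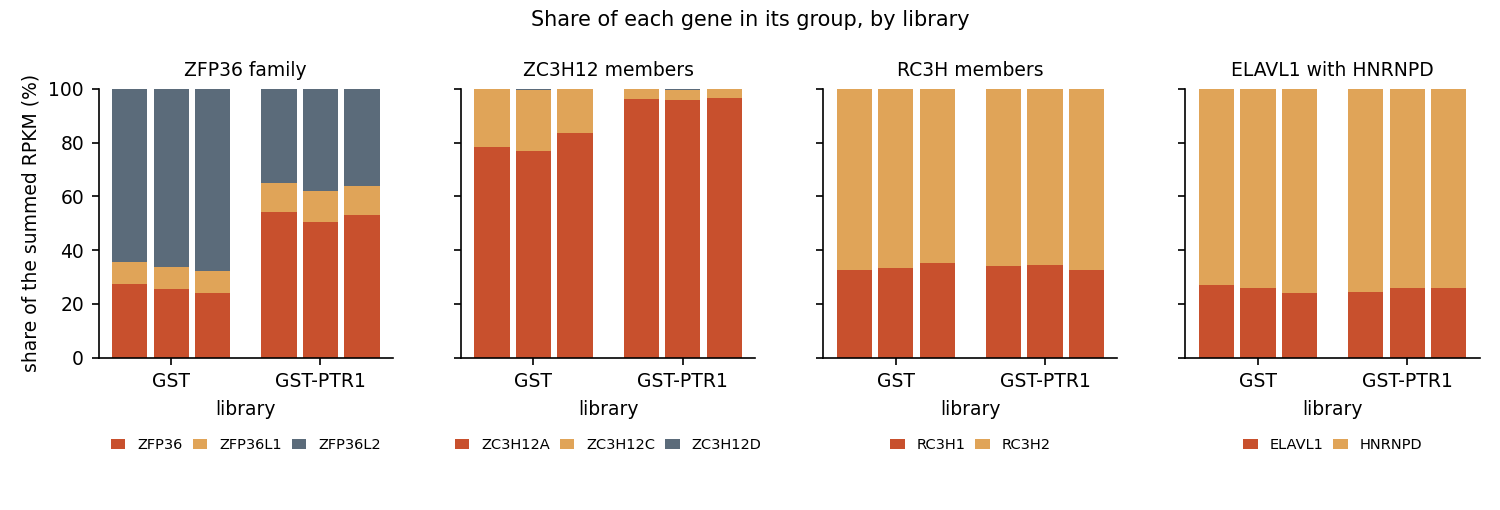
Share of each gene in the summed RPKM of its group (y axis, %), with 1 stacked bar per library in the order of the text. ZFP36 goes from 25.7% to 52.6% of its family on average and ZC3H12A from 79.6% to 96.3% of its group. In the Roquin pair and the pair of ELAVL1 and HNRNPD, the mean shares of the treatments differ by less than 1 percentage point, and single libraries vary more.

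The promoters of the 3 genes that rose, and that of RC3H2, are shown because the 3 rose together and RC3H2 is a gene that was not called and carries a κB match. RefSeq (GRCh38.p14) windows of 250 bases before and 50 after the start site were found for 7 members and searched on both strands for the NF-κB (κB) consensus, TGANTCA, TGACGTCA, TTCNNNGAA, the CArG box and TATAAA. Capitals mark every match.
ZC3H12A, chr1:37474330-37474629, plus strand: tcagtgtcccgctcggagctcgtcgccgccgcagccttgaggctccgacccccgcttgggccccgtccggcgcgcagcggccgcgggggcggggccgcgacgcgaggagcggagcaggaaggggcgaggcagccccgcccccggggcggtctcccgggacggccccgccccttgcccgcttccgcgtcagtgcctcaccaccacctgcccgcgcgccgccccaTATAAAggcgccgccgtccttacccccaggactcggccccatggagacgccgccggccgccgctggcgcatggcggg
ZFP36, chr19:39406597-39406896, plus strand: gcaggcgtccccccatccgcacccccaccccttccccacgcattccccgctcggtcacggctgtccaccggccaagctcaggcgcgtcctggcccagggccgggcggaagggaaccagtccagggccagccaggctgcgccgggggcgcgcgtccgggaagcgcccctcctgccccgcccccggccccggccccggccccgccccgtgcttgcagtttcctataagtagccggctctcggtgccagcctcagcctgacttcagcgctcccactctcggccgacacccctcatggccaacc
ZFP36L1, chr14:68796194-68796493, minus strand: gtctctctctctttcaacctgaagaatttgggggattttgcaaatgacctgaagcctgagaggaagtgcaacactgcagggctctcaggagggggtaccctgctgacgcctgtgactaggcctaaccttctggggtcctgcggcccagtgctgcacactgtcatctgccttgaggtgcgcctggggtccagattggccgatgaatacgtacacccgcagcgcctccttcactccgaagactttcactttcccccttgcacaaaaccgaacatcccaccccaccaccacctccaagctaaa
RC3H2, chr9:122905310-122905609, minus strand: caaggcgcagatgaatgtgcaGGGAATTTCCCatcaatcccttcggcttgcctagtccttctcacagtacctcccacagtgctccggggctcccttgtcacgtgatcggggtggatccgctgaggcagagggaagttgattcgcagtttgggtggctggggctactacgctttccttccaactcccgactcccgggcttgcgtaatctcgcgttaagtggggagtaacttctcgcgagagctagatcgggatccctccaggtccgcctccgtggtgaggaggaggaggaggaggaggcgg
The κB consensus stood in 10.8% of 27305 promoters of this length. It matched in RC3H2, on both strands of 1 overlapping stretch, and in ZC3H12C, and in none of the promoters of ZC3H12A, ZFP36 and ZFP36L1. ZC3H12A held TATAAA, found in 12% of all promoters, 27 to 22 bases before its start site, and ZFP36 and ZFP36L1 held none of the motifs searched. A motif that is missing here says only that these letters are not in the window.

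Genes whose levels followed those of the 3 called members most closely were picked by Pearson's r of log2 CPM over the 6 libraries, among 13360 genes with a mean count of at least 50. ZC3H12A was followed most closely by RELB (r = 0.999), an NF-κB subunit, DUSP5 (r = 0.999), a phosphatase of ERK, and TNFAIP3 (r = 0.999), a deubiquitinase that restrains NF-κB. ZFP36 was followed by SLC12A7 (r = 0.999), a potassium and chloride cotransporter, DOCK4 (r = 0.998) and CSF2RB (r = 0.998), the shared beta chain of several cytokine receptors. ZFP36L1 was followed by ATP13A2 (r = 0.998), PKM (r = 0.998), a glycolytic enzyme, and FTH1P4 (r = 0.998), a ferritin pseudogene whose reads may come from its near-identical copies. The libraries form 2 clusters by treatment, so these values mostly reflect the difference between treatments.

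In the machinery that carries out decay, log2 fold changes ran from -0.55 to 1.06, against 0.00 to 2.82 for the 9 members tested. The medians were 0.17 for the machinery and 0.10 for the members. Of 65 listed genes of deadenylation, decapping, the exosome and nonsense-mediated decay, 64 were tested. Of these, 13 were higher and 5 lower (20.3% and 7.81%, against 9.15% and 11.4% of all genes). The median log2 fold change was 0.17, against 0.01 for all genes tested. This list was chosen with earlier results of these data known and is not independent evidence of a direction. With library totals 3 of the 64 were higher and 6 lower, where 927 of all 16926 genes tested were higher and 3788 lower. The median was then -0.03 against -0.19. Leaving out GST 23453473 or GST-PTR1 28837431 gave 6 higher. In these fits calls higher over all genes fell too, to 1051 of 17269 and 1109 of 17389, from 1549 of 16926. Leaving out single libraries gave 1 to 4 lower. The count was 1 without GST-PTR1 44688737, 2 without GST-PTR1 28837431, and 3 without GST 15202503 or GST 23453473. Over all genes, leaving out single libraries gave 1179 to 1818 lower, against 1937.

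The 4 decay genes with the smallest adjusted p among those that rose were BTG1, XRN1, BTG3 and PATL1. BTG1, an antiproliferative protein that binds the CCR4-NOT deadenylase, went from 12.5, 13.2 and 10.8 CPM to 23.6, 22.5 and 22.2 CPM (log2 fold change 0.91, SE 0.12, adjusted p = 0.00041). XRN1, the exonuclease that degrades decapped mRNAs, went from 46.0, 46.8 and 41.8 CPM to 77.6, 75.03 and 70.1 CPM (0.73 on the log2 scale, SE 0.10). BTG3, of the same family as BTG1, had a log2 fold change of 1.06 (SE 0.17) and was the only one of the 13 at 2-fold or more. PATL1, an activator of decapping, had a log2 fold change of 0.51 (SE 0.10), and with library totals 0.31 (adjusted p = 0.061).

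Of the 5 decay genes lower with GST-PTR1, the 4 with the smallest adjusted p were DIS3L, a cytoplasmic nuclease of the exosome (log2 fold change -0.45, SE 0.09), CNOT6L, a catalytic subunit of CCR4-NOT (-0.50, SE 0.12), TOB1, an adaptor of that complex (-0.52, SE 0.13), and PAN2, the nuclease of the other deadenylase (-0.55, SE 0.15). DIS3L went from 72.5, 79.1 and 77.2 CPM to 56.6, 56.4 and 54.3 CPM without overlap and was lower in all 14 other fits. The other three calls each depended on single libraries. CNOT6L had an adjusted p of 0.053 without GST-PTR1 28837431 and 0.062 without GST-PTR1 44688737. TOB1 had an adjusted p of 0.052 without GST 23453473 and 0.057 without GST-PTR1 44688737. PAN2 had an adjusted p of 0.055 without GST 15202503, 0.072 without GST-PTR1 28837431 and 0.069 without GST-PTR1 44688737.

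Among other binders of AU-rich or U-rich elements and upstream regulators, few genes passed the test. Of 68 listed, 61 were tested. Of these, 5 were higher (8.20%, against 9.15% of all genes) and 3 lower (4.92%, against 11.4%). The median log2 fold change was 0.05. This list too was chosen with earlier results of these data known. With library totals 3 were higher and 13 lower. In that fit lower calls outnumbered higher ones in the whole table too, at 3788 against 927 of 16926 genes tested. Leaving out GST 20077280, GST 23453473, GST-PTR1 22874133 or GST-PTR1 28837431 gave 3 higher. Over all genes these fits gave, in that order, 1354 of 17265, 1051 of 17269, 1531 of 17360 and 1109 of 17389 higher. G3BP1, which nucleates stress granules, went from 295.4, 304.2 and 288.7 CPM to 471.7, 459.0 and 462.5 CPM (log2 fold change 0.65, SE 0.10, adjusted p = 0.0009). ARID5A, which protects the IL6 mRNA, went from 223.7, 179.4 and 222.7 CPM to 327.2, 311.8 and 298.1 CPM (0.58 on the log2 scale, SE 0.12). Neither gene overlapped between treatments. HNRNPC, a nuclear protein that binds U-rich RNA, had a log2 fold change of 0.58 (SE 0.12). HNRNPAB had a log2 fold change of 0.37 (adjusted p = 0.032) and lost its call without any 1 of the 6 libraries, with adjusted p between 0.055 and 0.093, and with library totals (adjusted p = 0.25). RBM38, an RNA-binding protein induced by p53, had a log2 fold change of -0.72 (SE 0.12), CELF2, a binder of GU-rich RNA, -0.81 (SE 0.17), and the kinase MAPK3 (ERK1) -0.52 (SE 0.12).

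The mRNAs that these factors are known to act on had the highest median of the lists. The list of 64 cytokines, chemokines, signal regulators and survival genes was written with earlier results of these data known and is not independent evidence of its direction. Of its 62 genes in the table, 51 passed the filter, but 8 of them did so only through the GST-PTR1 libraries. Among the 43 that reached the filter's level in all GST libraries, 32 were higher and 2 lower, against 8.48% higher and 12.1% lower of the 15900 genes treated alike, and their median log2 fold change was 1.63. Of the 51, 40 were higher and 2 lower. The 3 genes at 0 counts in every GST library have fitted values that depend on the prior count, and the median of the 51 was 1.86 with them as fitted and 1.86 with them at their lower bound.

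SOCS3, an inhibitor of cytokine receptor signaling, had 21, 23 and 32 counts with GST and 5539, 5353 and 7457 with GST-PTR1 (log2 fold change 7.44, SE 0.18, adjusted p = 1.1e-09). IL10, an anti-inflammatory cytokine, had 16, 19 and 16 counts with GST and 5401, 8639 and 15631 with GST-PTR1 (8.60 on the log2 scale, SE 0.25). LIF, a cytokine of the IL-6 family, had 26, 32 and 40 counts with GST and 2372, 2559 and 3550 with GST-PTR1 (5.95 on the log2 scale, SE 0.14). These 3 mRNAs were low with GST and far higher in every GST-PTR1 library.

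NFKBIZ, a nuclear cofactor of NF-κB whose mRNA is a known substrate of ZC3H12A, went from 18.8, 18.5 and 16.4 CPM to 182.8, 229.2 and 219.3 CPM (log2 fold change 3.56, SE 0.13). BIRC3, an inhibitor of apoptosis, had a log2 fold change of 3.92 (SE 0.12), BATF, a transcription factor of lymphocytes, 4.85 (SE 0.18), NFKBIA, the inhibitor IκBα, 3.02 (SE 0.12), and the chemokine CXCL8 6.65 (SE 0.28). TNF and IL6 are classical mRNAs of this control and were added after their values were seen. TNF had a log2 fold change of 4.59 (SE 0.24). IL6 had 0, 0 and 2 counts with GST and 68, 162 and 277 with GST-PTR1, a ratio of summed counts of 178.6 with an exact 95% interval from 49.2 to 1479 that covers counting error only.

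The lower mRNAs of the list were KLF2 and EGR1, both transcription factors. KLF2 went from 13.9, 7.19 and 8.06 CPM to 4.35, 3.33 and 3.93 CPM (log2 fold change -1.32, SE 0.24, adjusted p = 0.0034). EGR1 had 27, 18 and 25 counts with GST and 15, 9 and 15 with GST-PTR1 (-1.34 on the log2 scale, adjusted p = 0.025). Its adjusted p was 0.076 without GST 15202503, 0.059 without GST 23453473, and 0.091 without GST-PTR1 28837431 or GST-PTR1 44688737.

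**Figure D5:**
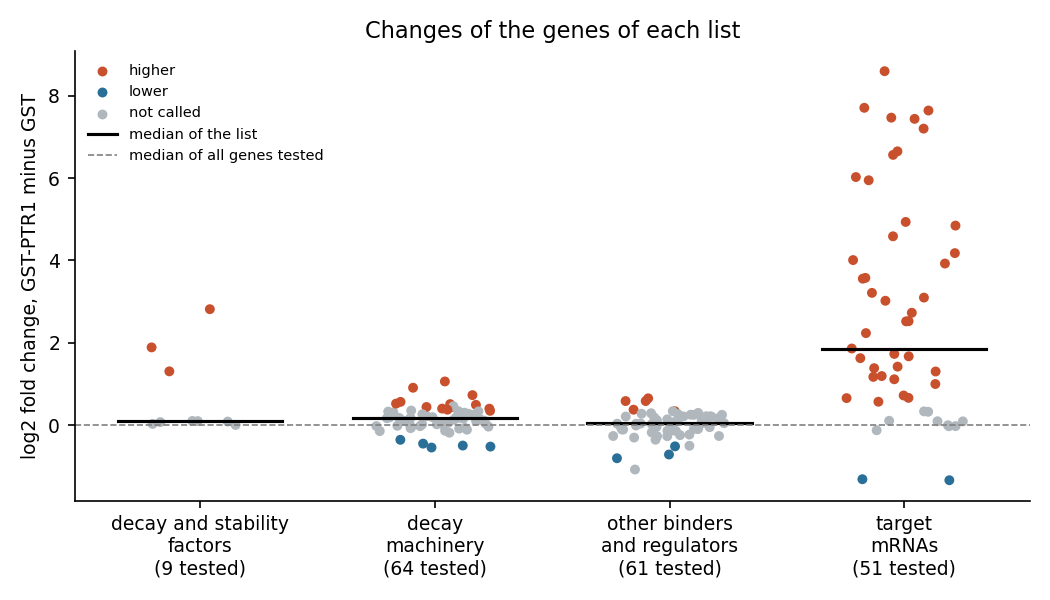
Log2 fold change (GST-PTR1 minus GST) of every tested gene of 4 lists, coloured by call at an adjusted p under 0.05, with a line at the median of each list (0.10, 0.17, 0.05 and 1.86) and a dashed line at the median of all genes tested. The target mRNAs reach far above the other lists, and 3 of their highest points (CXCL1, CXCL2 and LCN2) have 0 counts in every GST library, so that their height depends on the prior count of the fit.

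The libraries carried the markers of plasma cells and little of other cell types. The summed level of 10 plasma cell genes was 4164 to 4899 CPM with GST and 4041 to 4973 CPM with GST-PTR1. The sum covers changes in both directions. Of the 10 genes, all tested, 3 were called higher and 3 lower, against 9.15% and 11.4% of all genes tested. The 5 T cell genes in the table had at most 3 counts in any library, and 4 of 5 fibroblast genes (COL1A2, COL3A1, DCN and LUM) had 0 counts throughout. The 6 myeloid genes summed to 0.71 to 1.501 CPM with GST and 0.59 to 0.85 CPM with GST-PTR1, with FCGR3A and MPO at 0, and the 5 erythroid genes to 4.80 to 5.54 CPM and 2.96 to 5.96 CPM.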

How the data were processed

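RNA-Seq libraries from RPMI8226 cells (TRIzol, stranded poly(A) kit) were counted by the authors, who deposited raw counts per gene as whole numbers. Per the file header, featureCounts 1.5.0-p1 counted single reads on the reverse strand over Ensembl 75 (GRCh37) exons and left out reads with several hits. The members share no exon base with another gene on the same strand. The file header does not name the aligner, and the submitters' processing notes list FastQC, Subread (a package that includes an aligner and featureCounts) and limma without their roles. The numbers in the column names do not match the samples' replicate numbers, so columns were assigned by treatment only, and no column was left unused. No pair of libraries of 1 treatment agreed within sampling noise (chi-square per gene of at least 8.35). The labels call the replicates biological.

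From the deposited counts, CPM and RPKM were computed on TMM-scaled totals. Treatments were compared by edgeR 4.0.16 in R 4.3.3 (filterByExpr, TMM, quasi-likelihood test, Benjamini-Hochberg adjustment over all 16926 genes tested), first tested on simulated data. Ratios and shares were tested by exact two-sided permutation. Alternatives were DESeq2 1.42.0 size factors or library totals, DESeq2's test, limma 3.58.1 voom, filters of at least 1 count in any or 10 counts in every library, a 1.5-fold or adjusted p 0.01 threshold, each library left out, pseudocounts of 1 and 0.01 RPKM, and shares of counts. The fits of 4 libraries, the count of genes passing in GST libraries alone and the longest 3′ untranslated region were added after seeing the data. Python 3.11.15 (pandas 2.3.3, matplotlib 3.10.9) served for tables and plots.

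Named were all 10 members, up to 4 decay genes and up to 4 other binders called in each direction, up to 8 targets that rose and up to 4 that fell, each with the smallest adjusted p, and the 3 genes most like each member called at 2-fold or more. The members and lists were chosen with earlier results of these data known. Sequences come from GENCODE 29 and RefSeq on GRCh38, a later build than that of the counts.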

Additional observations from a re-analysis of the deposited data

How the results depend on the processing

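The calls of ZC3H12A, ZFP36 and ZFP36L1 kept their direction and side of the threshold in all 14 other fits, and the count of members called higher was 3 in 16 of 17 settings and 4 with ZC3H12D admitted by the filter of at least 1 count in any library. Over all genes, 1549 were higher and 1937 lower. Library totals gave 927 and 3788, the filter of at least 1 count gave 2608 higher, a 1.5-fold threshold 1007 higher, and an adjusted p under 0.01 gave 891 higher and 846 lower. Leaving out each library gave 1051 to 1531 higher and 1179 to 1818 lower. For the decay machinery, library totals gave 3 higher, the 1.5-fold threshold 3 higher and 0 lower, and an adjusted p under 0.01 gave 6 higher and 1 lower, against 13 and 5. Leaving out each library gave 6 to 10 higher and 1 to 4 lower. For the other binders and regulators, against 5 higher and 3 lower, library totals gave 3 and 13, the 1.5-fold threshold 1 higher, an adjusted p under 0.01 gave 3 higher, and leaving out each library 3 to 5 higher. Of the target mRNAs 2 were lower, and 1 was lower with 10 counts in every library or an adjusted p under 0.01, and 1 to 2 with each library left out. The cause of these shifts was not tested.

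The log2 fold changes of the uncalled members changed sign without passing the threshold. Library totals gave -0.19 for ZFP36L2, -0.17 for ZC3H12C, -0.094 for RC3H1, -0.10 for RC3H2, -0.12 for ELAVL1 and -0.11 for HNRNPD. With 1 library left out, ZFP36L2 ranged from -0.10 to 0.15 and ZC3H12C from -0.10 to 0.16. The difference between RC3H1 and RC3H2 ranged from -0.038 to 0.047 and that between ELAVL1 and HNRNPD from -0.066 to 0.039. In percentage points, the difference in share ranged from -0.58 to 0.75 for RC3H1, from -0.75 to 0.58 for RC3H2, from -0.88 to 0.52 for ELAVL1, from -0.52 to 0.88 for HNRNPD and from -0.076 to 0.031 for ZC3H12D, which was 0.032 with shares of counts.

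No paired analysis of all 6 libraries was possible because the columns cannot be matched to the samples' replicate numbers. Column names share a number in 4 libraries. Over genes, the difference between the GST libraries of these 4 and that between the GST-PTR1 libraries had a Pearson's r of -0.03. With so few libraries this value cannot decide whether the numbers pair them. In these 4 libraries the replicate block and the fit without it each gave 3 members higher and 3 other binders and regulators higher, and HNRNPD had a log2 fold change of -0.027 with the replicate block and -0.024 without it. The smallest exact p of 3 libraries against 3 is 0.1, and counts of 3 or fewer set the limit for ZC3H12D and for some target mRNAs, IL6 among them, in GST libraries. The values of the 2 pairs with ZC3H12D depend on the pseudocount.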

Other observations

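Among all genes tested, a larger share was called higher where the 3′ untranslated region held more AU-rich heptamers. Leaving out the members and the target list, 9.48% of 7989 genes with no TATTTAT were higher, 11.6% of 2125 genes with 1, 12.9% of 827 genes with 2 and 15.1% of 628 genes with 3 or more. The shares called lower were 12.7%, 13.7%, 12.1% and 13.2%, and the median log2 fold change lay between -0.02 and -0.01 in each class. The length of the region grew alongside, with medians of 647, 1751, 2769 and 4412 bases, and its part in the result was not tested. Of 911 genes with the nonamer TTATTTATT, 11.3% were higher and 13.9% lower, against 10.4% and 12.9% of all 11569. This count was added after seeing the data.

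The target list was dense in these sites. Of its 62 genes in the table, 45 held the heptamer (72.6%) and 22 the nonamer (35.5%). Its density was 1.63 heptamers per kilobase against 0.329 over all genes, and 23 of 64 decay genes held the heptamer (0.38 per kilobase). These counts depend on the transcript chosen for each gene. VEGFA and LCN2 were counted as without the heptamer on regions of only 47 and 20 bases. Among the targets tested, 31 of 37 with the heptamer and 9 of 14 without it were higher, against 9.15% of all genes tested. The median log2 fold change was 1.86 with it and 2.05 without it. The list was written with earlier results of these data known, and 8 of the 51 were tested only through the GST-PTR1 libraries. The split was not repeated without those 8, so no conclusion about the heptamer is drawn from it. Of the 3 called members, ZFP36 and ZFP36L1 held the heptamer and ZC3H12A did not, and of the 6 tested members that were not called, ZFP36L2, RC3H1, RC3H2 and ELAVL1 held it.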
